A study of Homo sapiens with 6 samples.

Results

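Expression of 10 genes of the cornified envelope and of its assembly was examined in MCF10A cells carrying an shRNA against FRY: IVL, SPRR1A, SPRR1B, SPRR2B, SPRR3, TGM1, CNFN, SBSN, KRTDAP and A2ML1. MCF10A is an immortalised line of human breast epithelium that does not form tumours, and FRY encodes a very large protein found at microtubules and bound to the NDR family of kinases. The members are all probe sets of the array for which the platform annotation gives one of these symbols and no other, which is 13 of 54613 probe sets and 10 of 19775 genes. SPRR1A, SPRR3 and A2ML1 had 2 probe sets each and the other 7 genes had 1. The control group is 3 samples of a clone stably transfected with a non-targeting shRNA, and the shFRY group is 3 samples of a clone stably transfected with the FRY-targeting shRNA. Both clones were derived from MCF10A under puromycin selection and were grown as monolayers in a medium with insulin at 10 ug/ml, hydrocortisone at 5 ug/ml, epidermal growth factor at 20 ng/ml and bovine pituitary extract. RNA was taken at 70% confluence. Each construct is represented by 1 clone and the samples of a clone varied in passage number, so a difference between the clones and an effect of the shRNA cannot be told apart, and p-values reflect the spread between samples of a clone, not between clones.

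The cornified envelope is a sheet of cross-linked protein that replaces the plasma membrane of keratinocytes in the last step of squamous differentiation. Involucrin (IVL) is laid down early under the membrane, small proline-rich proteins (SPRR) act as short cross-bridges between larger proteins, and transglutaminases such as TGM1 join them through glutamine and lysine residues. Many of the precursor genes lie side by side in the epidermal differentiation complex on chromosome 1, and several of them, SPRR1B among them, are also induced in non-cornifying epithelia by stress and inflammatory signals.

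The promoters of the SPRR genes are shown because each of these neighbouring genes had a probe set with higher signal in shFRY. That of IVL, a gene of the same complex that did not pass, is shown with them. Sequences are the 250 bases before each gene's start, from RefSeq on GRCh38.p14, 5′ to 3′ along the gene. They lie at chr1:153030953-153031202 (SPRR1B, plus strand), chr1:152983831-152984080 (SPRR1A, plus strand), chr1:153001499-153001748 (SPRR3, plus strand), chr1:153071612-153071861 (SPRR2B, minus strand) and chr1:152908296-152908545 (IVL, plus strand). Capitals mark matches, on either strand, to TGANTCA (the AP-1 motif), TATAAA (the TATA box) and GGAAGT (an ETS core).
SPRR1B: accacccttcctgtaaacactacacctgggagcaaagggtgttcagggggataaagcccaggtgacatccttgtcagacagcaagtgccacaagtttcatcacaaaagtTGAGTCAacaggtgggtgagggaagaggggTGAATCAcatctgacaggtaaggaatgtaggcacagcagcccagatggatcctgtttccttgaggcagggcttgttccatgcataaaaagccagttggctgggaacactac
SPRR1A: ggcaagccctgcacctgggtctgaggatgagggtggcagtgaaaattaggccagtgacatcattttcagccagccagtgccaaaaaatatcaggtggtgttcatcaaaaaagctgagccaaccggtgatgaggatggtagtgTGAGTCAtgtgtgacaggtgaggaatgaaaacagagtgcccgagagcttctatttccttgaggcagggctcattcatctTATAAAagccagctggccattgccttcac
SPRR3: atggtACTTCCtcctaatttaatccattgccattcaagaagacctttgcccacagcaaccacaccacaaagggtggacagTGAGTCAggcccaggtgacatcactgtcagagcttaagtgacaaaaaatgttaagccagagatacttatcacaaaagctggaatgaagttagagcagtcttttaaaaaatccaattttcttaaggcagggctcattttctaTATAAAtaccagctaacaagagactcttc
SPRR2B: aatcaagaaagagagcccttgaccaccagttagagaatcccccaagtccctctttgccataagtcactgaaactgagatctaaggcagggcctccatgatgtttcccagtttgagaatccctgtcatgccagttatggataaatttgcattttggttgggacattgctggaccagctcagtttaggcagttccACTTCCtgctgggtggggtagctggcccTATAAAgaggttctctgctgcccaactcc
IVL: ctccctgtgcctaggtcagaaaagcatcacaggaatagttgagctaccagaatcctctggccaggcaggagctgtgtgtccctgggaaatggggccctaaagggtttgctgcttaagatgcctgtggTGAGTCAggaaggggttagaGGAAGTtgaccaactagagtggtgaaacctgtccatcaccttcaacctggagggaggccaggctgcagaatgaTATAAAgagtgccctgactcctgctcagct
The AP-1 letters lay 141 to 135 and 111 to 105 bases before the start of SPRR1B, 108 to 102 before SPRR1A, 170 to 164 before SPRR3 and 123 to 117 before IVL. They were present in 6 of 10 promoters of 9 members (IVL, SPRR1A, SPRR1B, SPRR3, SBSN and KRTDAP; A2ML1 has 2 promoters in the table and TGM1 was not matched) and in 6.57% of all 35116 promoters of this length. TATAAA was found in 6 of these 10 and in 10.7% of all, and GGAAGT in 3 and in 19.5%. The letters ATTTGCAT, an octamer motif, were found in 1 (SPRR2B) and in 1.63% of all. Motifs did not overlap one another in the sequences printed. These matches describe letters in a window and say nothing of a factor's binding.

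Signals are log2 values from RMA, in which a difference of 1 is a 2-fold change, and the 6 sample medians lay between 3.02 and 3.06. Probe sets for bacterial genes, included here as a reference for low signal, read between 1.07 and 2.75. FRY was lower in shFRY at its probe set 204072_s_at (3.86 ± 0.34 in control and 3.11 ± 0.22 in shFRY, SD, n = 3 each). The log2 difference was -0.75 (SE 0.19, limma adjusted p = 0.0223). Its 3 other probe sets, 1555904_at (-0.49), 214318_s_at (-0.32) and 214319_at (-0.49), were also lower but did not pass (limma adjusted p = 0.0576, 0.103 and 0.203). With the beta-actin covariate described below, 204072_s_at was at -0.38 and did not pass (limma adjusted p = 0.676), and leaving out control sample 1 or 3, or shFRY sample 1 or 3, also ended its call (0.0502 to 0.0712). Samples of a group correlated at 0.992 to 0.995 and samples of different groups at 0.972 to 0.978 across probe sets. The beta-actin 3′ minus 5′ control difference, a measure of RNA length and amplification, was 2.52 ± 0.19 in control and 2.87 ± 0.03 in shFRY (SD, n = 3 each), so it moved with the groups and with every difference below. The same difference for GAPDH was -0.09 ± 0.01 in control and -0.07 ± 0.03 in shFRY (SD, n = 3 each), and its groups overlapped. Of 12 measured markers of mammary epithelial cell lines, at most 1 lay below the array median in any sample, and of 10 immune markers at least 8 did. The mean log2 level of 10 fibroblast markers was 3.95 to 4.16 in the control samples and 3.21 to 3.32 in the shFRY samples. Single fibroblast markers moved both ways, with 4 called lower and 1 higher in limma (background 16.0% and 13.7% of all genes) and log2 differences of -3.94 to 0.74. The mean of 10 endothelial and adipocyte markers was 2.85 to 2.93 in control and 2.76 to 2.98 in shFRY, with 6 to 9 of them below the array median. Of these 10, 2 were called higher and 1 lower, and PECAM1 read 7.27 to 7.59 over the samples. The part of these markers in the results was not tested.

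The SPRR genes were the members with the large differences, and all 4 had a probe set that rose in shFRY cells by 1.92 to 3.06 on the log2 scale. TGM1 rose by a smaller amount. CNFN, 1 probe set of A2ML1 and the other probe set of SPRR3 fell, whereas IVL, SBSN and KRTDAP did not pass in the comparison over all probe sets. In numbers, 5 of the 13 member probe sets passed as higher (background 10.9% of all probe sets), 3 passed as lower (background 12.2%) and 5 did not pass, at a limma adjusted p of 0.05 over 54613 probe sets. The groups did not overlap at 10 of the 13 (background 39.2%). The median log2 difference of the 13 was 0.46, beside 0.03 for all probe sets.

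**Figure D1:**
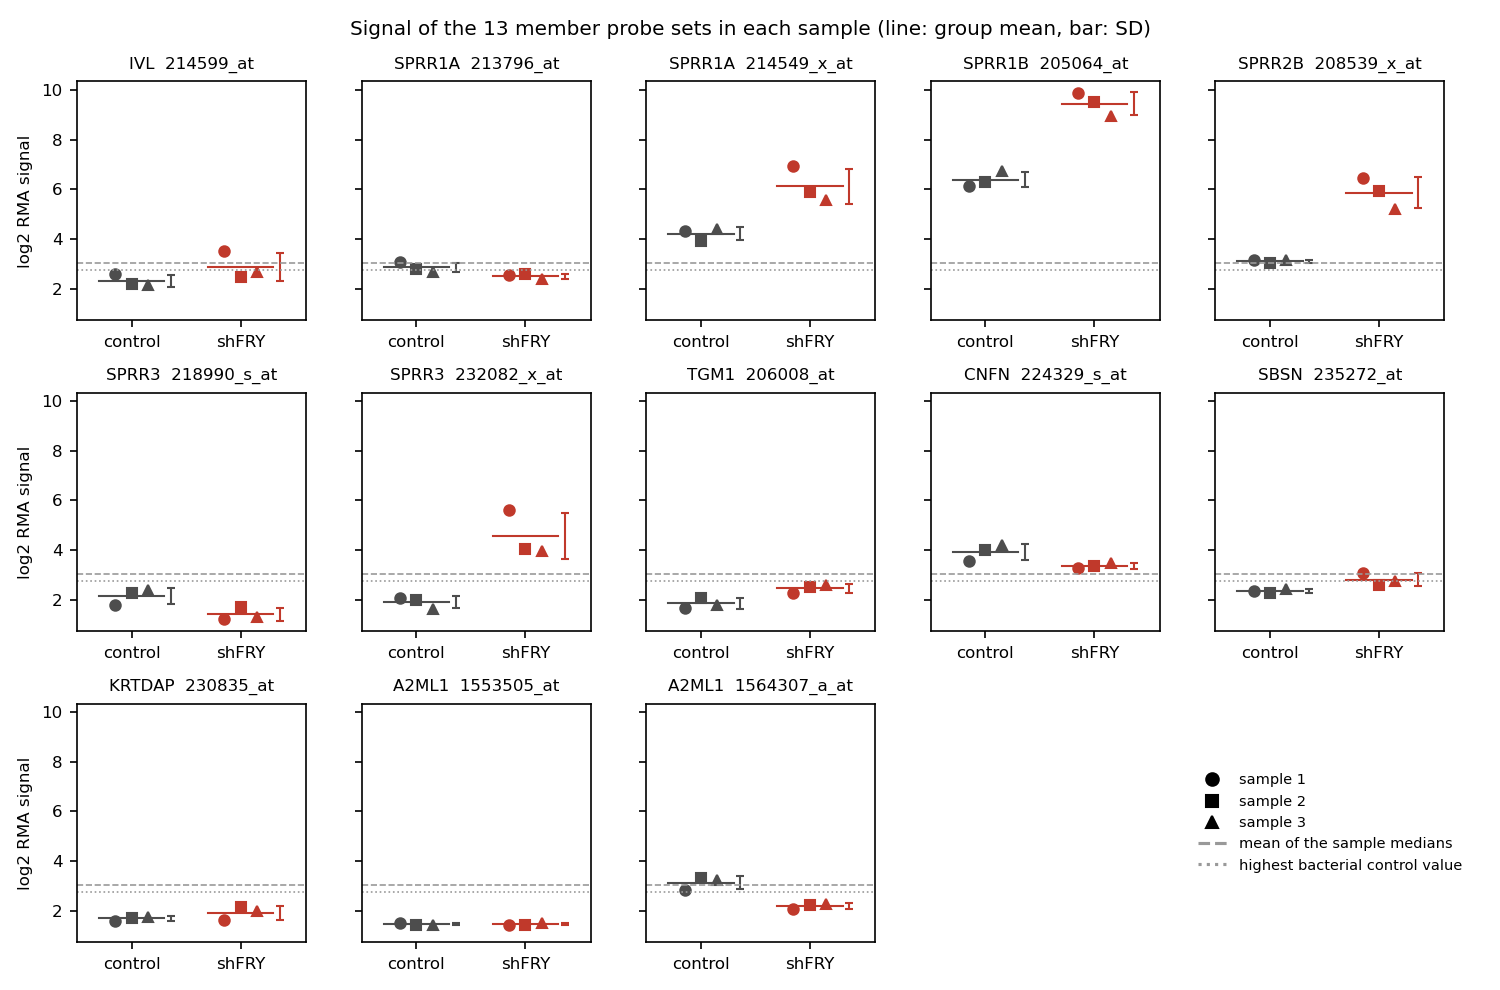
Log2 RMA signal (y axis) of the 13 member probe sets in the control samples (grey) and the shFRY samples (red), with a symbol for each sample, a line at the group mean and a bar of 1 SD (n = 3 each). The dashed line is the mean of the sample medians (3.04) and the dotted line the highest value of a bacterial control probe set (2.75). The shFRY samples of SPRR1B, SPRR2B and the _x_at probe sets of SPRR1A and SPRR3 lie clear of the control samples. Most of the other probe sets have means near or below the lines in both groups.

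SPRR1B, a cross-bridging protein of the envelope, had the largest difference of the members. Its probe set 205064_at read 6.15, 6.30 and 6.73 in control samples 1 to 3 and 9.87, 9.52 and 8.96 in shFRY samples 1 to 3. Every shFRY sample was above every control sample by more than 2 log2 units. The log2 difference was 3.06 (SE 0.24, limma adjusted p = 8.67e-05), an 8.32-fold rise with a 95% confidence interval of 5.68 to 12.2. It ranked 71 by size of rise among the 19775 genes, each taken at its probe set of highest mean.

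SPRR2B belongs to the largest subfamily of small proline-rich genes, whose copies are close in sequence. Its probe set 208539_x_at read 3.14, 3.02 and 3.15 in the control samples, close to the array median, and 6.47, 5.92 and 5.20 in the shFRY samples. The groups were far apart, and the shFRY samples spread more (SD 0.64) than the control samples (SD 0.07). The log2 difference was 2.76 (SE 0.27, limma adjusted p = 0.000258), a 6.80-fold rise with a 95% confidence interval of 4.40 to 10.5. SPRR2A, SPRR2D, SPRR2E and SPRR2F are not named alone by any probe set and were not analysed here. SPRR2C and SPRR2G were measured at 0.27 and -0.01 and did not pass (limma adjusted p = 0.162 for SPRR2C).

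SPRR1A, the closest relative of SPRR1B, gave opposite signs at its 2 probe sets. At 214549_x_at the control samples read 4.31, 3.93 and 4.40 and the shFRY samples 6.93, 5.90 and 5.57, with no overlap. This is a log2 difference of 1.92 (SE 0.32, limma adjusted p = 0.00313). At 213796_at the control samples read 3.06, 2.80 and 2.69 and the shFRY samples 2.53, 2.57 and 2.37, again with no overlap but with shFRY below control. That difference, -0.36 (SE 0.13, limma adjusted p = 0.0831), did not pass. All 3 shFRY values at 213796_at lay inside the range of the bacterial probe sets.

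SPRR3, a proline-rich protein of oral and oesophageal epithelium, passed in both directions. Its probe set 232082_x_at read 2.08, 1.98 and 1.64 in control and 5.61, 4.05 and 3.97 in shFRY. The control values lay inside the range of the bacterial probe sets and all 3 shFRY values lay above it. The log2 difference was 2.65 (SE 0.39, limma adjusted p = 0.00195). Its probe set 218990_s_at read 1.77, 2.28 and 2.41 in control and 1.24, 1.69 and 1.29 in shFRY, all 6 values inside the bacterial range. That difference was -0.75 (SE 0.19, limma adjusted p = 0.0244), and leaving out control sample 2 or 3, or shFRY sample 1 or 3, ended the call (limma adjusted p = 0.0829, 0.0810, 0.0770 and 0.0699). Of the 10523 genes with 2 or more probe sets, 124 (1.18%) had probe sets called in both directions, and SPRR3 was the 1 member among them.

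Of the 4 SPRR probe sets that rose, 3 carry the ending _x_at, which the array maker gives to sets with probes that can also match other transcripts. The exception is SPRR1B 205064_at. Over the whole array, 9.51% of the 4207 _x_at probe sets passed as higher, against 9.36% of the 37355 with the plain ending. Signal of SPRR1A, SPRR2B and SPRR3 at these sets and signal of related SPRR transcripts cannot be told apart. With probe sets ending in _s_at or _x_at left out, SPRR2B, SPRR3 and CNFN had none left, and SPRR1A was represented by 213796_at.

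The 4 SPRR probe sets that rose also ordered the shFRY samples alike. Sample 1 was the highest and sample 3 the lowest at each of the 4, and the mean of the 4 was 7.22, 6.35 and 5.93 in shFRY samples 1, 2 and 3. As 3 of the 4 are _x_at sets that may read related SPRR transcripts, they may not be 4 separate measurements. TGM1 was ordered the other way at these samples, with sample 1 the lowest. Genes outside the family also had the order of the 4, such as LCE3D (4.79, 4.11 and 3.78) and ABCA12 (6.88, 6.72 and 6.33). PI3 and S100A8 did not, and the share of all genes with this order was not counted. Samples of a group differ in passage number, which the labels do not give per sample.

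TGM1, the membrane-bound transglutaminase that cross-links envelope precursors, rose by 0.61 (SE 0.15, limma adjusted p = 0.0183). Its probe set 206008_at read 1.66, 2.08 and 1.80 in control and 2.25, 2.53 and 2.59 in shFRY. The groups did not overlap, but all 6 values lay inside the range of the bacterial probe sets. Leaving out control sample 1 or 3, or shFRY sample 2 or 3, ended the call (limma adjusted p = 0.0710, 0.0593, 0.0569 and 0.0543).

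IVL, the glutamine-rich scaffold of the envelope, read 2.57, 2.18 and 2.13 in control and 3.51, 2.47 and 2.66 in shFRY at its probe set 214599_at. The shFRY samples 1 and 3 were above every control sample and sample 2 was not, and the log2 difference of 0.59 (95% confidence interval -0.01 to 1.18) did not pass (limma adjusted p = 0.150).

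The remaining members are a membrane-associated envelope protein, suprabasal secreted proteins and a protease inhibitor. CNFN (cornifelin), which becomes part of the envelope, read 3.56, 3.99 and 4.19 in control and 3.26, 3.35 and 3.47 in shFRY at 224329_s_at. All shFRY samples were below all control samples, and the log2 difference was -0.56 (SE 0.17, limma adjusted p = 0.0422). The call was lost without control sample 2 or 3 and without any 1 of the shFRY samples (limma adjusted p = 0.0608 to 0.127), and after a further quantile normalization (-0.49, limma adjusted p = 0.0669).

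A2ML1, an inhibitor of proteases made by upper epidermal layers, fell at 1564307_a_at and did not pass at 1553505_at. The first read 2.83, 3.31 and 3.23 in control and 2.05, 2.23 and 2.28 in shFRY. The groups did not overlap, and the log2 difference was -0.94 (SE 0.15, limma adjusted p = 0.00265). All 3 shFRY values of this probe set lay inside the bacterial range, so the size of the fall is not well measured. The second read 1.41 to 1.49 in control and 1.43 to 1.52 in shFRY, inside the bacterial range, with a difference of 0.02 and a 95% confidence interval of -0.20 to 0.25. Its sign turned after a further quantile normalization (-0.05) and without shFRY sample 3.

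SBSN (suprabasin) and KRTDAP, secreted proteins of differentiating keratinocytes, are encoded on either side of DMKN (dermokine) on chromosome 19. SBSN read 2.36, 2.25 and 2.43 in control and 3.08, 2.59 and 2.74 in shFRY, without overlap, a log2 difference of 0.46 (SE 0.14). It did not pass over all probe sets (limma adjusted p = 0.0517), and passed over the 19775 genes (limma adjusted p = 0.0394) and, over all probe sets, after median centring (limma adjusted p = 0.0408) or without shFRY sample 2 (0.0348). The call over genes was lost without any 1 of the control samples, without shFRY sample 1 or 3 (limma adjusted p = 0.0598 to 0.123) and with the beta-actin covariate (0.511). KRTDAP read 1.58, 1.72 and 1.76 in control and 1.61, 2.16 and 2.003 in shFRY. These groups overlapped, and its difference of 0.24 (95% confidence interval -0.11 to 0.59) did not pass (limma adjusted p = 0.321), although KRTDAP passed over genes without shFRY sample 1 (0.40, limma adjusted p = 0.0462). Their neighbour DMKN, measured at 6.70 in control and 6.89 in shFRY, did not pass either (limma adjusted p = 0.210).

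**Figure D2:**
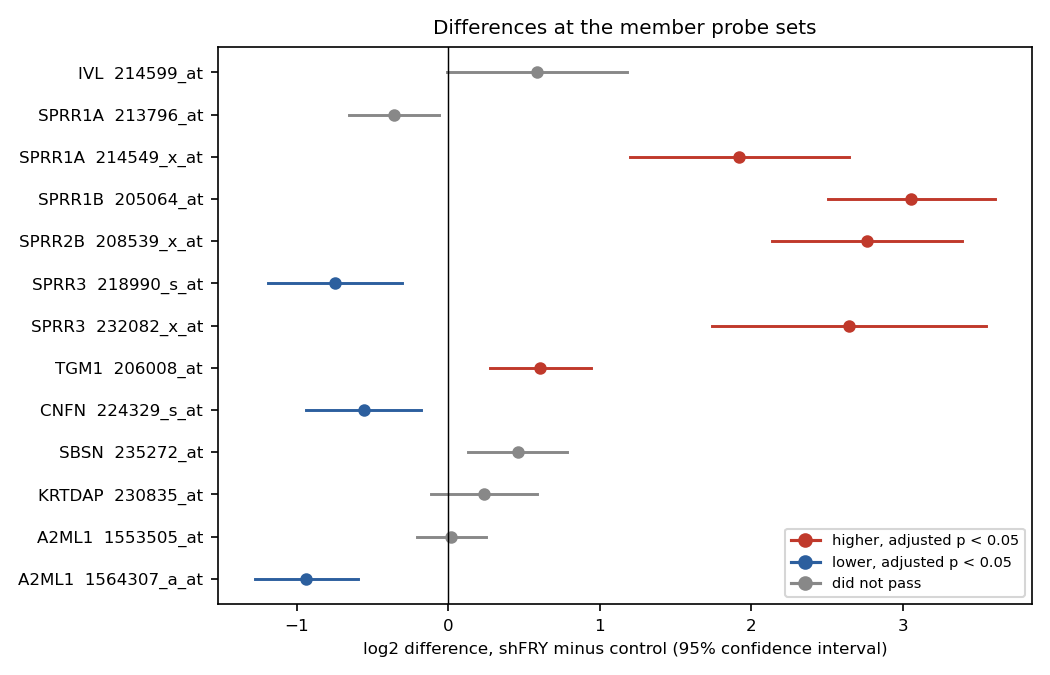
Log2 difference between the shFRY and control means (x axis) at each member probe set, with its 95% confidence interval from limma. Red points passed an adjusted p of 0.05 as higher, blue points as lower, and grey points did not pass. The SPRR probe sets that rose lie between 1.92 and 3.06, apart from the other probe sets, which lie between -0.94 and 0.61.

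With the beta-actin difference added to the model as a covariate, 1 of the 13 member probe sets passed, SPRR1B at 2.41 (SE 0.40, limma adjusted p = 0.0286). The SPRR rises kept their direction in that fit, with wider errors: SPRR2B was at 2.61 (SE 0.56, limma adjusted p = 0.0595), SPRR3 232082_x_at at 2.97 (SE 0.80, limma adjusted p = 0.111) and SPRR1A 214549_x_at at 1.73 (SE 0.64, limma adjusted p = 0.228). CNFN, A2ML1 1564307_a_at and SPRR3 218990_s_at were at -1.11, -1.29 and -1.38 there (limma adjusted p = 0.0574, 0.0520 and 0.0525). TGM1 was at 0.50 (limma adjusted p = 0.460).

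Along chromosome 1 the SPRR members form a run: among measured genes, SPRR1A, SPRR3, SPRR1B and SPRR2B follow each other with no other gene between them. The genes on either side of this run, SPRR4 (0.10) and SPRR2C (0.27), did not pass. Each gene is taken here at its probe set of highest mean over the 6 samples. For SPRR3 that choice rests on the shFRY values, since in control 232082_x_at (1.90) read below 218990_s_at (2.15). The other probe sets of SPRR3 (-0.75) and SPRR1A (-0.36) went the other way. Of the 45 measured genes from S100A10 to S100A1, the span of the epidermal differentiation complex, 10 rose (background 13.7% of all genes) and 3 fell (background 16.0%), and 32 did not pass at a limma adjusted p of 0.05 over 19775 genes. The counts were 4 and 0 with the beta-actin covariate, 12 and 1 with the mean of probe sets, and 6 and 2 of 39 without _s_at and _x_at probe sets. The median log2 difference was 0.18, beside 0.03 for all genes. In 27 of the 45, both group means lay below the array median.

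**Figure D3:**
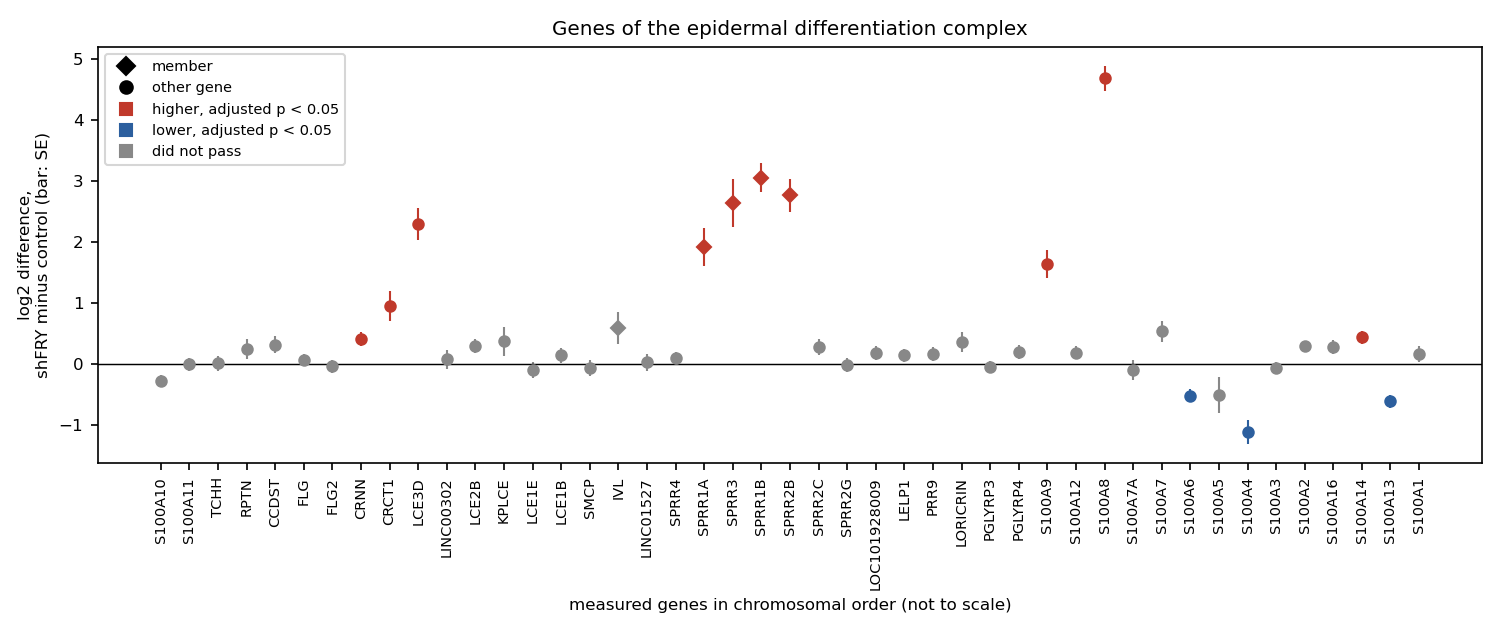
Log2 difference between shFRY and control (y axis, bar of 1 SE from limma) for the 45 measured genes of the epidermal differentiation complex in chromosomal order (x axis, not to scale). Each gene is shown at its probe set of highest mean. Diamonds are members and circles other genes, and colour gives the call. The 4 SPRR members stand side by side between 1.92 and 3.06, and S100A8 is at 4.69.

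Other precursors of the envelope mostly stayed at low signal. Of the 15 measured genes of that list other than members, 3 rose and 0 fell (12 did not pass in limma; background as above), with a median log2 difference of 0.14, and 14 of the 15 had both group means below the array median. The 3 rises became 1 without control sample 2 or 3 and 0 with the beta-actin covariate. LCE3D, a late cornified envelope gene, rose from 1.93 ± 0.33 to 4.23 ± 0.51 (SD, n = 3 each; log2 difference 2.29, SE 0.26, limma adjusted p = 0.000407). CRCT1 (0.95) and CRNN, which encodes cornulin (0.40), rose by less. The control values of all 3 genes, and the shFRY values of CRNN, lay inside the bacterial range. So did those of CRCT1 in shFRY samples 2 and 3 (2.42 and 2.43). The call of CRCT1 was lost without any 1 of the control samples (limma adjusted p = 0.0569 to 0.0729), and that of CRNN on leaving out control sample 2 or 3, or shFRY sample 1 or 2 (0.0658 to 0.107), and after a further quantile normalization (0.0534). With the beta-actin covariate LCE3D was at 2.11 and did not pass (limma adjusted p = 0.0762), nor did CRCT1 (0.401) or CRNN (0.234). LORICRIN, the main protein of the epidermal envelope (0.35), and FLG, which encodes filaggrin (0.06), did not pass.

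The S100 genes of the complex encode small calcium-binding proteins and had 3 of 16 genes called higher and 3 lower (background 13.7% and 16.0%; median 0.08), shares near the background. These counts were 5 and 1 with the mean of probe sets, 5 and 3 with median centring or array weights, 6 and 4 with the trend and robust options of eBayes, and 2 and 0 with the beta-actin covariate. S100A8 and S100A9, the subunits of the antimicrobial protein calprotectin, rose by 4.69 and 1.64. The control values of S100A8 (1.63 to 2.46) lay inside the bacterial range, so its difference is measured against a group at background. S100A4 fell (-1.12), and S100A13 fell (-0.62), a call that was lost with the mean of its probe sets (-0.22, limma adjusted p = 0.214). Both S100A4 (-0.90) and S100A13 (-0.52) missed the threshold with the beta-actin covariate.

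Enzymes of envelope cross-linking and of its lipid coat were also mixed: of 20 measured genes other than TGM1, 5 rose and 3 fell (background 13.7% and 16.0%; median 0.08). The 5 rises became 2 without control sample 1 or 2 and with the beta-actin covariate, and 3 without shFRY sample 1. ALOXE3, a lipoxygenase of the epidermal lipid barrier, rose by 1.73, and ABCA12, the lipid transporter of lamellar granules, by 1.62. TGM2, the tissue transglutaminase, fell (-0.99) where TGM1 rose, and SPTLC2, a subunit of the enzyme that starts sphingolipid synthesis, fell as well (-1.18). All 4 were called in limma with adjusted p-values of 0.000163 to 0.00248.

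Of 19 measured envelope partners, desmosomal and suprabasal genes other than members, 3 rose and 3 fell (background 13.7% and 16.0%; median 0.02), shares near the background. The 3 falls became 1 without control sample 1 or shFRY sample 1, and the counts were 1 and 1 with the beta-actin covariate. The desmosomal cadherin genes DSC3 (1.35) and DSG3 (1.26) and the desmoplakin gene DSP (1.02) rose, and DSC2, another desmocollin gene, fell (-1.06). DSC3 (1.16) and DSP (1.29) missed the threshold with the beta-actin covariate (limma adjusted p = 0.0707 and 0.0638).

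Protease inhibitors of squamous epithelium were higher more often than lower: of 17 measured genes other than A2ML1, 8 rose and 1 fell (background 13.7% and 16.0%; median 0.37). The counts were 3 and 0 with the beta-actin covariate, and 9 and 2 without shFRY sample 1. PI3, which encodes elafin, an elastase inhibitor and transglutaminase substrate, rose from 5.28 ± 0.41 to 8.47 ± 0.10 (SD, n = 3 each; log2 difference 3.19, SE 0.19, limma adjusted p = 2.02e-05). SERPINB1 (1.81) and CSTA, which encodes cystatin A, an envelope component (1.65), rose, and the cystatin gene CST6 fell (-1.001). CST6 was at -0.99 with the beta-actin covariate and did not pass (limma adjusted p = 0.122).

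The kallikreins and related proteases, several of which cut desmosomal proteins in shedding skin, fell more often than they rose: of 16 measured genes, 8 fell and 1 rose (background 16.0% and 13.7%; median -0.43). The 8 falls were 8 on leaving out any 1 sample and 5 with the beta-actin covariate, and the 1 rise became 3 without shFRY sample 3 and 2 with median centring, a further quantile normalization, array weights or the mean of probe sets. KLK5 (-2.96), KLK6 (-2.65), KLK10 (-2.59) and KLK7 (-2.34) had the largest falls, and the shFRY values of KLK6 (2.29 to 2.70) lay inside the bacterial range. KLK7 was at -1.60 with the beta-actin covariate and did not pass (limma adjusted p = 0.102). Of 18 measured keratins of stratified epithelium, 1 rose and 1 fell (background 13.7% and 16.0%; median -0.07); without shFRY sample 2 there were 2 rises, and without control sample 2 there were 2 falls. The basal keratin gene KRT14 rose (2.92) and KRT15, another basal keratin gene, fell (-1.84). KRT6A, KRT6B, KRT6C and KRT17 are not named alone by any probe set and were not analysed here.

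Transcription factors known from keratinocyte differentiation had the most calls among these lists: of 37 measured genes, 20 rose and 5 fell (background 13.7% and 16.0%), with a median of 0.31. The counts were 10 and 1 with the beta-actin covariate, and the falls were 3 without control sample 2 or 3 or with the mean of probe sets, and 2 without _s_at and _x_at probe sets. Subunits of AP-1 were among the rises, namely FOS (1.82), FOSL2 (1.64) and JUN (1.64). ELF3, an ETS factor of epithelial differentiation, fell from 8.72 ± 0.06 to 6.42 ± 0.36 (SD, n = 3 each; log2 difference -2.30, SE 0.17, limma adjusted p = 5.80e-05). Over the 8 lists together, members left out, 44 of 158 genes rose and 24 fell, with a median of 0.14.

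**Figure D4:**
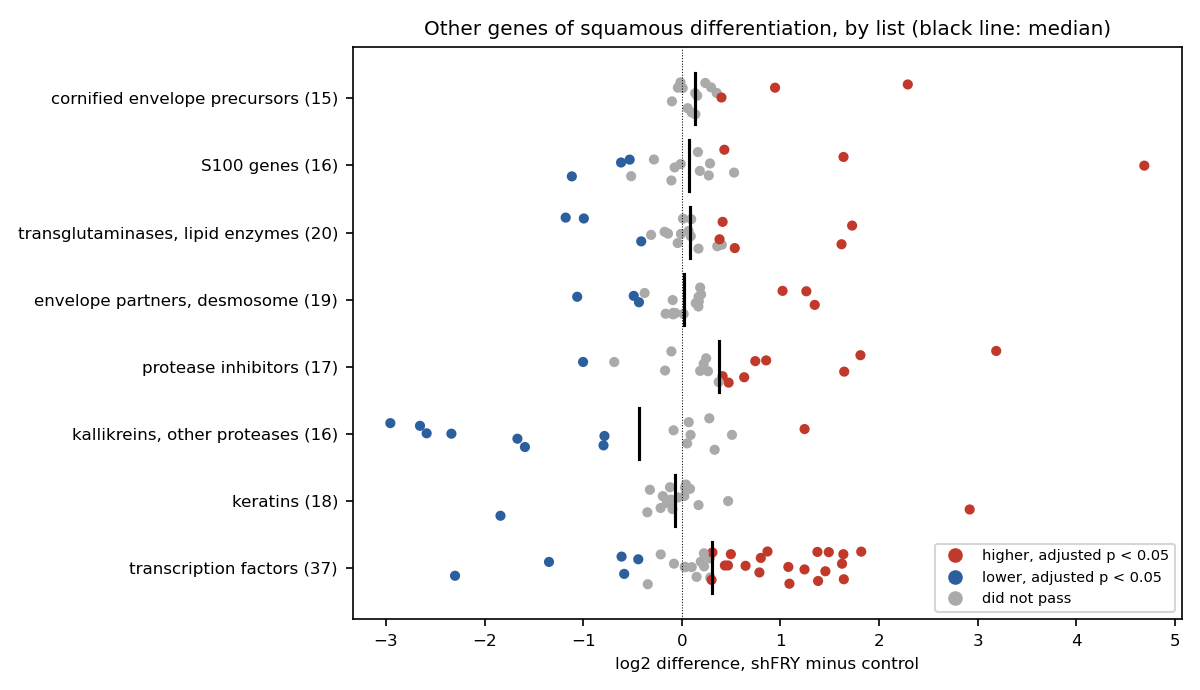
Log2 difference between shFRY and control (x axis) for the measured genes of 8 lists of squamous differentiation other than the members, with 1 point a gene, the number of genes in brackets and the list's median as a black line. Red points passed an adjusted p of 0.05 as higher, blue points as lower, and grey points did not pass. The kallikreins and related proteases lie mostly to the left (median -0.43), and the protease inhibitors (0.37) and transcription factors (0.31) mostly to the right.

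The genes whose values over the 6 samples were nearest to those of SPRR1B, after subtracting each gene's control mean, were PPP1R15A, DUSP1, DUSP5, TREM1 and SPRR2B. Their root-mean-square differences from SPRR1B were 0.22, 0.24, 0.25, 0.25 and 0.28 on the log2 scale. This distance depends largely on the size of the group difference, which was 2.76 to 3.28 for these 5 genes. It therefore mostly finds genes with a like fold change. PPP1R15A encodes a stress-induced phosphatase subunit, DUSP1 and DUSP5 encode MAP kinase phosphatases and TREM1 an innate immune receptor. TREM1 read 2.97 in control and 6.24 in shFRY, a log2 difference of 3.28. For A2ML1, the member gene with the largest fall, the nearest were B3GLCT, IKZF2, SLC25A44, ABCD3 and UNKL, at 0.07, 0.08, 0.08, 0.09 and 0.09, with log2 differences of -0.90 to -0.96.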

How the data were processed

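Each of the 6 RNA samples was hybridised to an array of its own with 1 colour after amplification and biotin labelling, per the labels' protocols. The authors deposited log2 values made with RMA, per the submitters' processing notes, which here name no settings. RMA usually makes the arrays' distributions alike and compresses fold changes of dim probe sets. Values were used as deposited, and no scanner files were used here.

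Of 54675 probe sets, 62 were controls; 41091 had 1 gene symbol in the platform annotation, 1801 several and 11721 none listed. Symbols were updated through Entrez IDs to RefSeq (41037 matched). Groups, taken from the sample titles, were compared with lmFit and eBayes of limma 3.58.1 (R 4.3.3; 4 residual degrees of freedom; differences are shFRY minus control), with Benjamini-Hochberg adjustment over 54613 probe sets, or over 19775 genes each represented by its probe set of highest mean. The members, lists and tests were chosen with earlier results of these data known. Lists were described by counts and medians, and from each list up to 4 called genes with the largest difference were named. DMKN, SPRR4, SPRR2C, SPRR2G, LORICRIN and FLG were chosen after their values were seen. Only the main model fit, without block or covariate, was tested on simulated data. Precision is limited by the 3 arrays a group: over genes, the median SD between samples was 0.13 in control and 0.15 in shFRY.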

Additional observations from a re-analysis of the deposited data

How the results depend on the processing

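The 5 rises and 3 falls among the member probe sets became 1 and 0 with the beta-actin covariate, and the 6 higher and 2 lower member genes became 2 and 2. Over the 168 genes of the 8 lists, members included, that covariate also lowered the higher and lower calls from 50 and 26 to 22 and 12. It lowered the calls over all genes from 5889 to 1026. Leaving out 1 sample in turn gave 4 to 5 higher and 1 to 3 lower member probe sets, and 4 to 6 higher and 1 to 2 lower member genes. With only the brighter 50% of probe sets by mean over all 6 samples, 5 member probe sets were left, of which 4 passed as higher and 1 as lower. One of the 4, SPRR3 232082_x_at (1.90 in control and 4.55 in shFRY), was kept only through its shFRY values. Its call in this setting is therefore no check on brightness. Of the 3 member genes left in this setting, 3 passed as higher and 0 as lower, since fewer members were tested. Without _s_at and _x_at probe sets 3 of 7 member genes passed as higher and 1 as lower, and SPRR1A was at -0.36. A further quantile normalization left 1 member gene called lower. A2ML1 1553505_at was at -0.0528 there and between -0.0085 and 0.0428 on leaving out 1 sample; the cause was not tested. The replicate block gave 6 higher and 3 lower member probe sets and 5330 called genes, and changed the calls of IVL, which passed (limma adjusted p = 0.0392), and of FRY 204072_s_at, which did not (0.0522), while FRY 1555904_at and 214319_at passed (0.0263 and 0.0365). Deviations of same-numbered samples correlated at -0.01, 0.01 and 0.06, and those of other-numbered samples at -0.04 to 0.04. With 3 samples a group, these values cannot tell whether same-numbered samples shared a passage, which the labels do not give. At low signal, 4 member probe sets had all 6 values inside the range of the bacterial probe sets, where differences are hard to measure.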
